A study of Homo sapiens with 24 samples.

Results

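The retinoid receptors and retinoid handling genes are 8 named genes of 1 signalling pathway: the retinoic acid receptors RARA, RARB and RARG, the retinoid X receptors RXRA and RXRB, the retinoic acid carrier CRABP2, the retinal reductase DHRS3 and the retinoic acid hydroxylase CYP26B1. Members were found through probe sets (groups of short probes that read 1 transcript region) annotated to 1 of these genes alone. That gave 22 probe sets for the 8 genes, of 19775 genes with such a probe set, and the probe set with the highest mean over all arrays stood for its gene. All 8 genes reached a log2 level of at least 5 on at least 3 arrays and were tested among 14335 genes that did so.

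Gene expression was measured on 24 Affymetrix HG-U133 Plus 2.0 arrays. The cells were BT-474, an established line from a human breast tumour that carries extra copies of ERBB2 (the HER2 gene) and expresses the estrogen receptor. They carried siRNA against HER2 or a control siRNA. They were then given 10 nM estrogen or the vehicle, 0.001% ethanol, for 4 or 24 h. The 8 groups of 3 arrays were HER2 siRNA estrogen, HER2 siRNA vehicle, control siRNA estrogen and control siRNA vehicle at each time. All cells had received an siRNA, so no group shows untransfected cells, and a single cell line was studied. The sources used here do not give the siRNA sequences, the time between transfection and hormone or any retinoid in the medium. No group was labelled as given a retinoid. Nothing in the labels says whether the 3 arrays of a group came from separate cultures, so p-values measure the spread between these arrays, which may be technical.

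All-trans retinoic acid is made from vitamin A (retinol) by oxidation to retinal and then to the acid. CRABP2 carries it to the nucleus, where it binds RAR proteins that sit on DNA as pairs with RXR proteins, and CYP26 enzymes inactivate it. RXR proteins also pair with other nuclear receptors, among them the vitamin D, thyroid hormone and PPAR receptors. In estrogen receptor-positive breast cancer cells RARA is known as an early estrogen-induced gene, and retinoic acid is known to slow the growth of such cells.

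Before the members, the treatments were checked on genes that mark them. ERBB2, the siRNA's target, was lower after HER2 siRNA by a log2 difference of -1.34 ± 0.06 (difference ± SE here and below; adjusted p = 1.11e-14 over the 4 conditions averaged), and the estrogen-induced trefoil peptide TFF1 was higher with estrogen by 1.34 ± 0.16 at 4 h in control siRNA cells (adjusted p = 5.94e-05). Luminal epithelial markers were bright (KRT18 median 13.43, GATA3 median 12.43), and the leukocyte marker PTPRC, the endothelial marker CDH5 and the basal keratin KRT14 had medians of 3.83, 3.56 and 3.86. Some other non-luminal markers were far brighter. The mesenchymal markers TWIST1 and VIM had medians of 9.99 and 9.63, the fibroblast marker COL1A1 9.63 and the endothelial marker VWF 7.29. After HER2 siRNA, averaged, 59.2% of all genes tested were called, in either direction. In that comparison 4 of 12 luminal markers tested were higher and 4 lower, 1 of 3 fibroblast markers was higher (COL1A1), 1 of 2 leukocyte markers was higher (LYZ), 1 of 3 endothelial markers was lower (VWF) and both basal and mesenchymal markers tested were higher (TWIST1 by 1.67 ± 0.05, VIM by 0.29 ± 0.10). On the HER2 siRNA arrays the summed level of each whole list was 15.86 to 16.14, 9.69 to 10.23, 6.43 to 7.13, 7.80 to 8.23 and 11.04 to 11.80 in the same order, against 16.05 to 16.24, 9.27 to 10.13, 6.33 to 6.65, 8.001 to 8.44 and 10.19 to 10.71 on the control siRNA arrays (log2). The 3′ control probe set of GAPDH minus its 5′ control probe set, a measure of RNA quality, was 0.44 ± 0.06 on HER2 siRNA arrays and 0.31 ± 0.07 on control siRNA arrays (log2, SD, n = 12 each). For ACTB the same measure was 1.40 ± 0.33 and 1.17 ± 0.29, and it was highest on HER2 siRNA estrogen 4 h replicate 1 (2.30). The part of marker levels or of RNA quality in the siRNA results below was not tested. For 1 array, HER2 siRNA estrogen 4 h replicate 3, 1 label gives 24 h and all its other labels give 4 h, and 3 replicate 1 arrays carry label numbers that stand apart from those of the other 21. All member results called below were also called without the first of these and without the 3, and without the first RARA's estrogen difference with HER2 siRNA at 4 h was 1.14, RXRA's siRNA difference with estrogen at 4 h was 0.85, RXRB's 0.39 and CRABP2's -0.59. Array medians lay between 5.28 and 5.36, and 2 arrays of a group correlated at 0.991 to 0.997.

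RARA, the retinoic acid receptor alpha, rose with estrogen with either siRNA and at either time, by 2.27-fold at 4 h and by 2.42- to 2.44-fold at 24 h. Its level was 8.31, 8.48 and 8.51 on the HER2 siRNA estrogen arrays at 4 h, against 7.29, 7.10 and 7.36 on the HER2 siRNA vehicle arrays. With control siRNA at 4 h it was 8.12, 8.38 and 8.48 with estrogen, against 7.20, 7.21 and 7.02 with vehicle. The lowest estrogen array of either siRNA thus stood above the highest vehicle array. At 24 h the HER2 siRNA estrogen arrays had 8.42, 8.55 and 8.60, against 7.32, 7.11 and 7.32 with vehicle. The control siRNA estrogen arrays at 24 h had 8.55, 8.64 and 8.60, against 7.43, 7.29 and 7.22 with vehicle. Over the whole series the 12 estrogen arrays lay between 8.12 and 8.64 and the 12 vehicle arrays between 7.02 and 7.43, with no overlap.

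The difference between estrogen and vehicle for RARA was 1.18 ± 0.10 with HER2 siRNA at 4 h (adjusted p = 2.32e-07) and 1.18 ± 0.10 with control siRNA at 4 h (adjusted p = 4.64e-07). At 24 h it was 1.27 ± 0.10 with HER2 siRNA (adjusted p = 1.06e-08) and 1.28 ± 0.10 with control siRNA (adjusted p = 2.03e-08). RARA was the only member called at 4 h, 1 of 8 with each siRNA, where 0.698% of all genes tested were called with HER2 siRNA and 0.342% with control siRNA. At 24 h 1 of 8 was called with HER2 siRNA and 2 of 8, RARA and RXRA, with control siRNA, where 6.17% and 13.5% of all genes were called. Among the 14335 genes ordered by their estrogen difference, RARA stood at place 25 with HER2 siRNA and at place 13 with control siRNA at 4 h. At 24 h it stood at place 63 with HER2 siRNA and at place 44 with control siRNA. Each array measured RNA pooled from many cells, so a change in the share of cells that express a gene and a change per cell cannot be told apart.

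**Figure D1:**
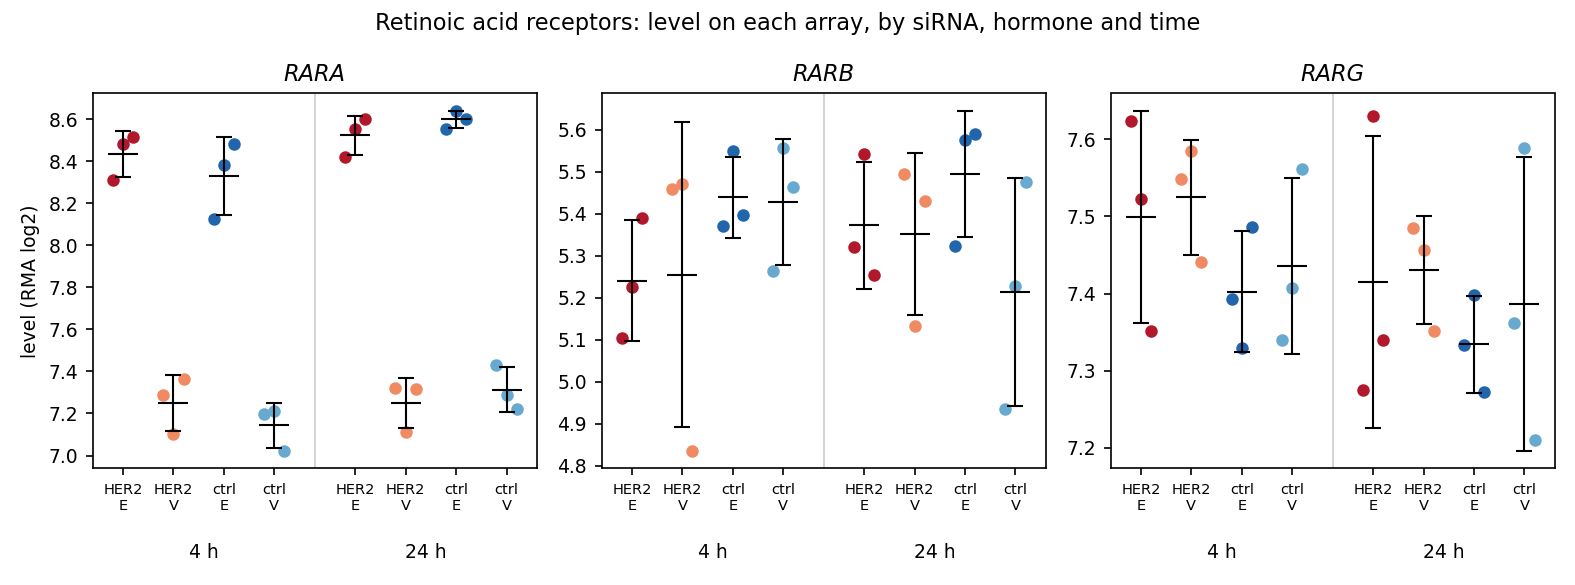
Level (RMA log2, each panel with its own scale that does not start at 0) of RARA, RARB and RARG on each array, by siRNA (HER2, or ctrl for control), hormone (E estrogen, V vehicle) and time; points are arrays, bars mean ± SD of 3 arrays. RARA lay between 8.12 and 8.64 on every estrogen array and between 7.02 and 7.43 on every vehicle array, while the groups of RARB and RARG overlapped.

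On the probe set reported here, the RARA response to estrogen was not detectably different between the siRNAs (other probe sets are given below). The difference of the estrogen effects, HER2 siRNA minus control siRNA, was 0.00 at 4 h (95% interval -0.29 to 0.29) and -0.01 at 24 h (95% interval -0.30 to 0.28). In the fit without a replicate block (the replicate number added to the fit) no member passed this test at 4 h or at 24 h, where 0% and 0.0628% of all genes did. With the block RXRA passed it at 24 h (adjusted p = 0.0214). At 4 h limma called 0 of 14335 genes. An unadjusted p under 0.05 was found for 403, fewer than the share of 0.05 expected if no gene differed. HER2 siRNA itself, averaged over the 4 conditions, moved RARA by 0.02 ± 0.05 (adjusted p = 0.779).

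Nor did the RARA response on the same probe set differ detectably between the times (other probe sets are given below). The estrogen effect at 24 h minus that at 4 h was 0.09 ± 0.14 with HER2 siRNA (95% interval -0.20 to 0.38) and 0.10 ± 0.14 with control siRNA (95% interval -0.19 to 0.39), and no member passed this test in the fit without a replicate block, which 0.516% and 1.28% of all genes passed in HER2 and control siRNA cells. TFF1 passed it in control siRNA cells, where its estrogen difference was 3.34 ± 0.16 at 24 h and 1.34 ± 0.16 at 4 h (adjusted p of the difference 7.115e-05). RARA itself was 0.27 ± 0.10 higher at 24 h than at 4 h in control siRNA estrogen cells, with arrays that did not overlap, but this did not pass the test (adjusted p = 0.109). In control siRNA vehicle cells it was 0.17 ± 0.10 higher, also without overlap and not called (adjusted p = 0.455). With HER2 siRNA the times overlapped, with differences of 0.09 ± 0.10 in estrogen cells and -0.001 ± 0.10 in vehicle cells. The share of all genes without overlap was not counted for any comparison, so non-overlap alone is no support for a difference.

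Other early estrogen-induced genes moved with RARA. The list of 25 such genes held 23 that were tested. With HER2 siRNA 13 of them rose with estrogen at 4 h and 19 at 24 h, and with control siRNA 7 rose at 4 h and 15 at 24 h, and none fell in any of these 4 comparisons. Of all genes tested, 0.663%, 4.28%, 0.335% and 7.01% rose in the same order. With control siRNA at 4 h the transcription factor HEY2 rose by 2.03 ± 0.16, the oncogene MYC by 2.30 ± 0.24, TFF1 by 1.34 ± 0.16 and the ubiquitin ligase SIAH2 by 0.95 ± 0.12. The median difference of the list was 0.71 with HER2 siRNA and 0.40 with control siRNA at 4 h, and 0.99 and 0.82 at 24 h, beside medians of -0.01 to 0.02 over all genes tested. The estrogen difference was larger at 24 h than at 4 h in 20 of the 23 genes with each siRNA, by a median of 0.40 with HER2 siRNA and 0.46 with control siRNA, and 7 and 5 of the 23 stood above RARA at 4 h. Averaged over the conditions, HER2 siRNA raised 3 and lowered 10 of the 23, where 59.2% of all genes were called, among them FHL2 by -1.30, MYBL1 by -1.84, TPD52L1 by -0.46 and IL17RB by -0.86.

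**Figure D2:**
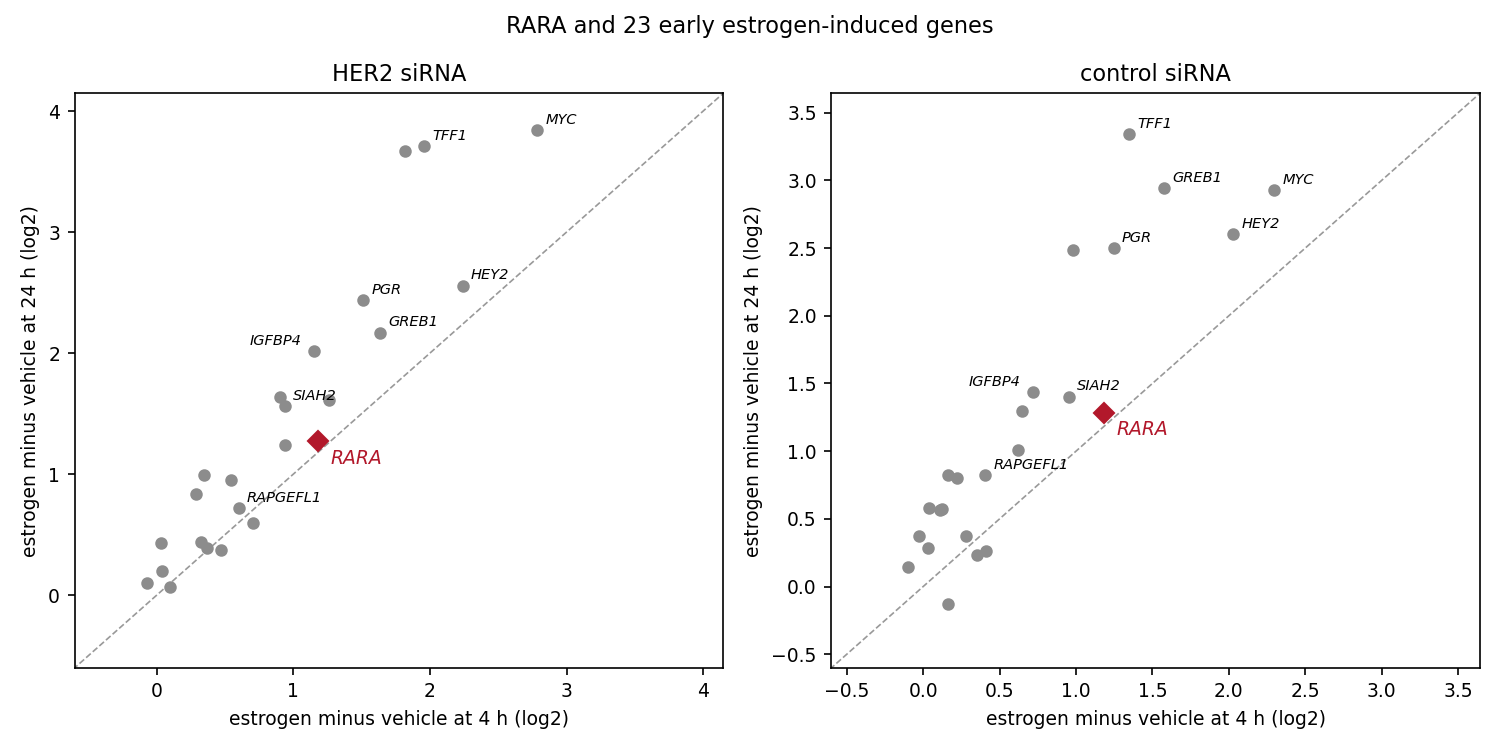
Estrogen minus vehicle (log2) at 24 h against the same at 4 h for RARA (red diamond) and 23 early estrogen-induced genes (grey points, some named), with HER2 siRNA on the left and control siRNA on the right; the dashed line marks equal differences. On its probe set with the highest mean RARA lies near the line with 1.18 at 4 h and 1.27 or 1.28 at 24 h, while 20 of the 23 genes lie above it in each panel.

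RARA lies at chr17:40309180-40357643 (GRCh38.p14, plus strand), in the same chromosome region as ERBB2. The list of 15 neighbours there held 10 tested genes. The growth factor binding protein IGFBP4 was the only neighbour to rise with estrogen at 4 h in control siRNA cells (0.72 ± 0.11), and at 24 h in the same cells IGFBP4 (1.43 ± 0.11), the exchange factor-like gene RAPGEFL1 (0.82 ± 0.13), the replication licensing factor CDC6 (0.78 ± 0.16) and topoisomerase TOP2A (0.50 ± 0.14) rose and none fell. With HER2 siRNA 2 of the 10 rose with estrogen at 4 h and 4 at 24 h, and none fell. Of all genes tested, 0.663% and 4.28% rose with HER2 siRNA at 4 and 24 h, and 0.335% and 7.01% with control siRNA. After HER2 siRNA, averaged, 2 of the 10 rose and 5 fell, where 59.2% of all genes were called: CDC6 by -2.11 ± 0.08, TOP2A by -2.01 ± 0.07 and RAPGEFL1 by -0.29 ± 0.06 fell, and the thyroid hormone receptor THRA rose by 0.37 ± 0.04. RARA was not called in that comparison.

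RefSeq gives RARA several transcript starts, and the windows of 300 bases around them (250 before to 50 after the start) differ in the motifs they hold. The first and the second are printed because the RARA response to estrogen was the largest difference among the members and because RARA's known estrogen control runs through elements of these kinds. The palindromic estrogen response element, GGTCA followed after 3 bases by its inverse, was in 0 of the 17 windows of the 8 members and in 0.057% of 35116 windows of all genes. Both strands were searched for its half-site GGTCA, which a full element also contains, and for the GC box GGGCGG, the core bound by SP1 family factors. The upstream window, chr17:40308930-40309229 (plus strand), holds 1 GC box and 3 half-sites, which are in capitals as GGTCA or, on the other strand, TGACC.
RARA upstream start: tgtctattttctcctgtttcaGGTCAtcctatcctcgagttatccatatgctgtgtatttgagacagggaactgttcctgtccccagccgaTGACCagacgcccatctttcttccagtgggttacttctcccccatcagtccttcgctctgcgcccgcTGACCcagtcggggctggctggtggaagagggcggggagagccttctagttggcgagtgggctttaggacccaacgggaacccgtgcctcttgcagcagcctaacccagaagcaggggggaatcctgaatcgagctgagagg
The next window, chr17:40317995-40318294 (plus strand), holds no half-site and 5 GC boxes, shown in capitals as GGGCGG or CCGCCC.
RARA second start: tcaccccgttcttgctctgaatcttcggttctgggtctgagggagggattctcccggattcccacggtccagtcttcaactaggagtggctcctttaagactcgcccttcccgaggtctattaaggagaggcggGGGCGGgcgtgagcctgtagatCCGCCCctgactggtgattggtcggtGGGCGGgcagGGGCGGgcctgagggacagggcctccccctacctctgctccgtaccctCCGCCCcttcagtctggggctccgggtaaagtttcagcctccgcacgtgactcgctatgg
The half-site was in 37.4% and the GC box in 45.0% of all windows, and in 5 and 9 of the 17 member windows. The arrays do not show which start was used, and a match is a run of letters, not a bound site.

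Probe sets of RARA differed in how far they moved. The probe set reported above, 203749_s_at, was the one with the highest mean. On 216300_x_at the estrogen difference was 0.74 ± 0.13 with HER2 siRNA and 0.50 ± 0.13 with control siRNA at 4 h, and 0.58 ± 0.13 and 0.88 ± 0.13 at 24 h, with the control siRNA value at 4 h short of the threshold (adjusted p = 0.291 over 26502 probe sets). On 211605_s_at it was 0.66 ± 0.11 and 0.13 ± 0.11 at 4 h with HER2 siRNA and control siRNA, and 0.46 ± 0.11 and 0.58 ± 0.11 at 24 h, and again only the control siRNA value at 4 h was not called. On both of these probe sets the 4 h difference was larger with HER2 siRNA than with control siRNA. With control siRNA it was larger at 24 h than at 4 h, and with HER2 siRNA it was smaller. The like responses across siRNAs and times described above are thus those of 203749_s_at. No estrogen difference passed the test on 203750_s_at, where the values lay between 0.01 and 0.25. The remaining probe set, 1565358_at, had a mean level of 3.39 and was not tested. All 4 tested probe sets had estrogen differences above 0, and the mean over RARA's probe sets gave differences of 0.35 to 0.60, each past the threshold.

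**Figure D3:**
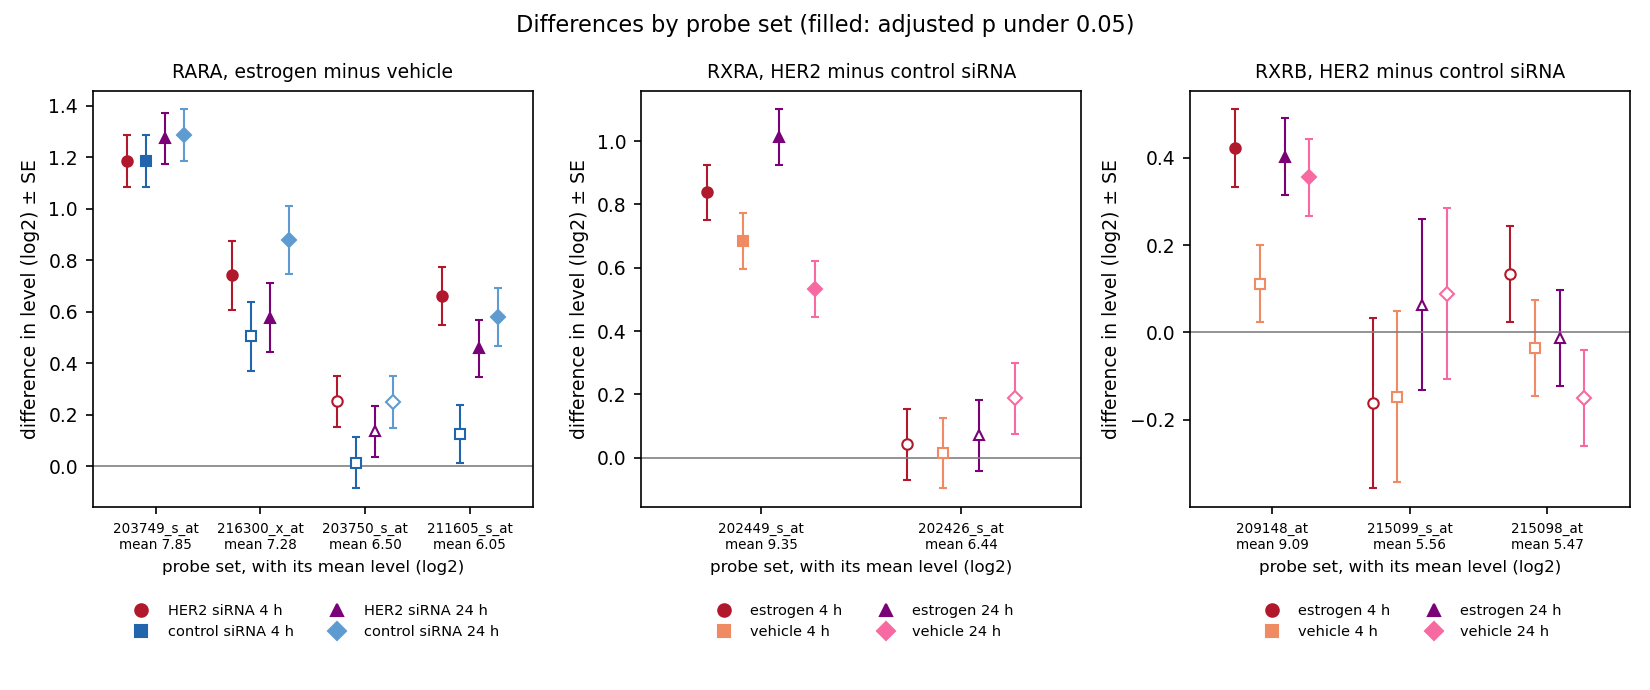
Difference in level (log2, ± SE) on each tested probe set of RARA (estrogen minus vehicle), RXRA and RXRB (HER2 siRNA minus control siRNA), by condition, with probe sets in the order of their mean level; filled symbols passed the test among 26502 probe sets. RARA moved on 3 of its 4 probe sets, by up to 1.28 on the one with the highest mean, while RXRA and RXRB moved on that probe set alone.

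RARB, the retinoic acid receptor beta (chr3:24829321-25597932, plus strand), is known as a gene that retinoic acid induces through a retinoic acid response element in its promoter. It was not called in any of the 18 comparisons of siRNA, hormone and time. Its level lay between 4.83 and 5.59 on the 24 arrays with a median of 5.39, close to the level of 5 that the filter asked for, which 22 of the 24 arrays reached. Every group of RARB overlapped its neighbour in the order of the 8 group means, which lay between 5.21 and 5.50. The largest difference was 0.28 ± 0.16, for estrogen with control siRNA at 24 h (adjusted p = 0.262).

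A retinoic acid response element is a direct repeat of 2 half-sites. Each half-site could be AGGTCA, the variant GGGTCA, the variant AGTTCA or the variant GGTTCA. Repeats in the same direction spaced by 1, 2 or 5 bases were searched on both strands. With a spacing of 5 the repeat was in 0.0883% of all windows and in 1 of the 17 member windows, that of RARB at chr3:25428013-25428312 (plus strand). It is printed here as the only such repeat among the members, with the repeat in capitals, which starts 53 bases before the transcript start.
RARB start in this window: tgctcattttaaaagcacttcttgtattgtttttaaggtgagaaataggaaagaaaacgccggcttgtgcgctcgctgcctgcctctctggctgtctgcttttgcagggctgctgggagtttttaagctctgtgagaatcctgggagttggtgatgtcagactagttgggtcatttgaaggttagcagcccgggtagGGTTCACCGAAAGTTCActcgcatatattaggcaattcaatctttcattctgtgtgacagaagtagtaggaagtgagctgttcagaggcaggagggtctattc
Repeats spaced by 1 and by 2 bases were in 0.131% and 0.0399% of all windows and in 0 of the 17 member windows.

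RARG, the retinoic acid receptor gamma (chr12:53210569-53232209, minus strand), was also not called in any of the 18 comparisons. Its level lay between 7.21 and 7.63 on the 24 arrays with a median of 7.402. The 8 group means lay between 7.33 and 7.52, and each group overlapped the next in that order. HER2 siRNA, averaged, gave 0.08 ± 0.05 (95% interval -0.03 to 0.18, adjusted p = 0.206), and the estrogen differences lay between -0.05 and -0.02 with an SE of 0.10 each. Of its other 2 probe sets, 204188_s_at (mean level 5.39) was called in 1 comparison, HER2 siRNA against control siRNA in vehicle cells at 24 h (0.30, adjusted p = 0.0465 over all probe sets), and 217178_at in none.

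RXRA, the retinoid X receptor alpha (chr9:134326455-134440585, plus strand), rose after HER2 siRNA in all 4 conditions, by 1.45- to 2.02-fold. With estrogen at 4 h its level was 9.84, 9.74 and 9.75 on the HER2 siRNA arrays, against 8.99, 8.90 and 8.92 on the control siRNA arrays. With vehicle at 4 h it was 9.82, 9.64 and 9.75 after HER2 siRNA, against 9.20, 9.01 and 8.94 after control siRNA. In both conditions the groups stood clear of each other. At 24 h with estrogen the HER2 siRNA arrays had 9.75, 9.58 and 9.71, against 8.79, 8.61 and 8.61 on the control siRNA arrays. At 24 h with vehicle they had 9.81, 9.68 and 9.77, against 9.30, 9.05 and 9.30 on the control siRNA arrays. Over the whole series the 12 HER2 siRNA arrays lay between 9.58 and 9.84 and the 12 control siRNA arrays between 8.61 and 9.30, with no overlap.

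Averaged over the 4 conditions RXRA was 0.77 ± 0.04 higher after HER2 siRNA (adjusted p = 9.33e-13). At 4 h the difference was 0.84 ± 0.09 in estrogen cells and 0.68 ± 0.09 in vehicle cells. At 24 h it was 1.01 ± 0.09 in estrogen cells and 0.53 ± 0.09 in vehicle cells. In all 3 members were called in the averaged comparison (RXRA and RXRB higher, CRABP2 lower, 3 of 8), where 59.2% of all genes tested were called. In the single conditions 3, 2, 3 and 3 of the 8 were called in the same order as above, where 34.1%, 34.2%, 42% and 41.5% of all genes were.

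Estrogen lowered RXRA in 1 of 4 comparisons. With control siRNA at 24 h the estrogen arrays were below all vehicle arrays, by -0.55 ± 0.09 (adjusted p = 1.28e-04). In the fit without a replicate block this was the 1 estrogen call of a member other than RARA. With HER2 siRNA at 24 h the difference was -0.07 ± 0.09 (adjusted p = 0.806). The difference of these 2 effects was 0.48 ± 0.12 (95% interval 0.23 to 0.73), which did not pass the test over all genes (adjusted p = 0.239). With the replicate block it did pass (adjusted p = 0.0214). The 3′ to 5′ GAPDH difference was 0.27 ± 0.01 on the estrogen arrays and 0.36 ± 0.08 on the vehicle arrays of the control siRNA at 24 h (log2, SD, n = 3 each). For ACTB it was 1.17 ± 0.13 and 1.41 ± 0.32, and the part of RNA quality in the RXRA difference was not tested. At 4 h the estrogen differences of RXRA were 0.04 ± 0.09 with HER2 siRNA and -0.11 ± 0.09 with control siRNA, neither called.

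The second probe set of RXRA, 202426_s_at, had a mean level of 6.44 and was not called. Its difference after HER2 siRNA, averaged, was 0.08 ± 0.06 (adjusted p = 0.243). The mean of both probe sets, which includes the first, gave 0.42, still past the threshold. The RXRA result after HER2 siRNA thus rests on the probe set with the highest mean.

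RXRB, the retinoid X receptor beta (chr6:33193588-33200853, minus strand), rose after HER2 siRNA in 3 of 4 conditions, by 1.28- to 1.34-fold. With estrogen at 4 h its level was 9.24, 9.30 and 9.36 on the HER2 siRNA arrays, against 8.82, 9.004 and 8.82 on the control siRNA arrays. With estrogen at 24 h it was 9.26, 9.35 and 9.33, against 8.97, 8.83 and 8.93. In both the groups did not overlap. With vehicle at 24 h the HER2 siRNA arrays had 9.32, 9.36 and 9.22, against 8.89, 9.02 and 8.92. With vehicle at 4 h they had 8.94, 9.23 and 9.06, against 8.80, 9.11 and 8.98 on the control siRNA arrays, and these groups overlapped.

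The RXRB difference after HER2 siRNA was 0.32 ± 0.04 averaged (adjusted p = 9.65e-07). It was 0.42 ± 0.09 and 0.40 ± 0.09 in estrogen cells at 4 and 24 h and 0.36 ± 0.09 in vehicle cells at 24 h. In vehicle cells at 4 h it was 0.11 ± 0.09 (adjusted p = 0.353). The result rests on 1 of 3 probe sets: 215099_s_at and 215098_at gave -0.04 ± 0.10 and -0.02 ± 0.05 averaged, and the mean of the 3 probe sets gave 0.09, short of the threshold (adjusted p = 0.055). RXRB was not called for estrogen in any of the 4 comparisons, with differences between -0.08 and 0.23. The highest, with HER2 siRNA at 4 h, was 0.23 ± 0.09 (95% interval 0.05 to 0.40, adjusted p = 0.4998). There the estrogen arrays stood above the vehicle arrays, and how many of all genes did the same was not counted.

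**Figure D4:**
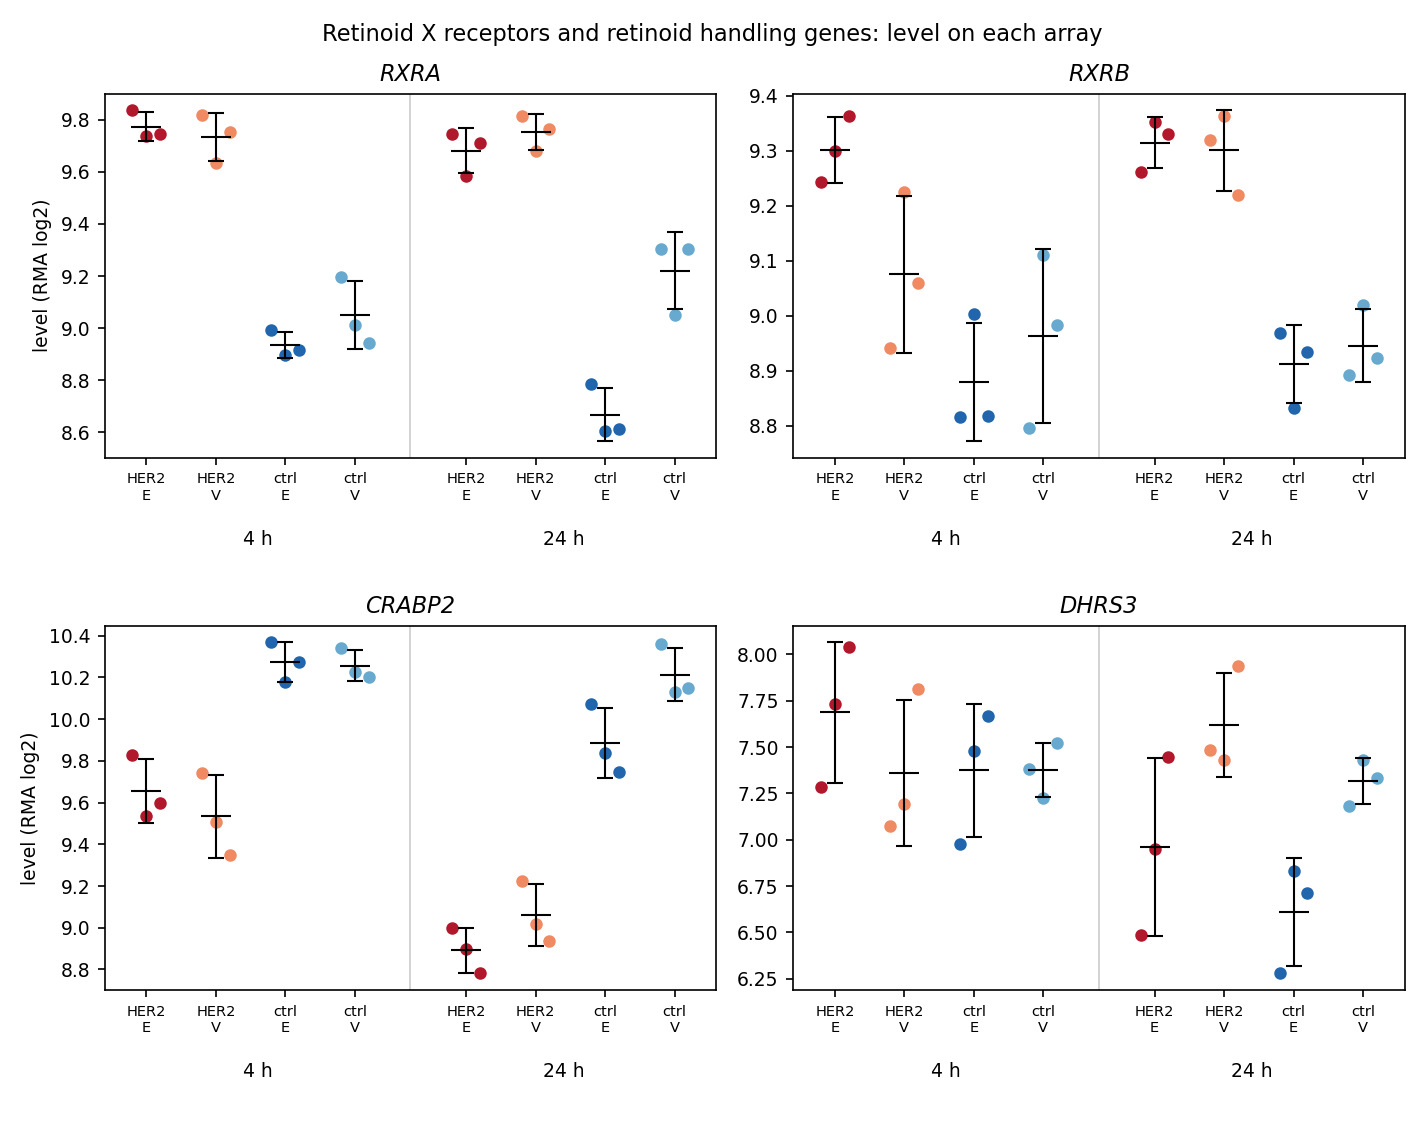
Level (RMA log2, each panel with its own scale that does not start at 0) of RXRA, RXRB, CRABP2 and DHRS3 on each array, by siRNA (HER2, or ctrl for control), hormone (E estrogen, V vehicle) and time; points are arrays, bars mean ± SD of 3 arrays. RXRA stood at 9.58 to 9.84 on the HER2 siRNA arrays and at 8.61 to 9.30 on the control siRNA arrays, CRABP2 was lower after HER2 siRNA at each time, and DHRS3 varied most within groups.

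CRABP2, the cellular retinoic acid binding protein that hands retinoic acid to its receptors (chr1:156699606-156705784, minus strand), fell after HER2 siRNA in all 4 conditions. With estrogen at 4 h its level was 9.83, 9.54 and 9.60 on the HER2 siRNA arrays, against 10.37, 10.18 and 10.28 on the control siRNA arrays. With vehicle at 4 h it was 9.74, 9.51 and 9.35, against 10.34, 10.23 and 10.20. In each condition the highest HER2 siRNA array stood below the lowest control siRNA array. At 24 h with estrogen the HER2 siRNA arrays had 8.997, 8.90 and 8.78, against 10.07, 9.84 and 9.74 on the control siRNA arrays. At 24 h with vehicle they had 9.22, 9.02 and 8.94, against 10.36, 10.13 and 10.15. The 24 h HER2 siRNA groups were the lowest 2 of the 8 and overlapped each other.

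Averaged, CRABP2 was -0.87 ± 0.06 lower after HER2 siRNA (0.546-fold, adjusted p = 1.00e-11). At 4 h the difference was -0.62 ± 0.11 in estrogen cells and -0.72 ± 0.11 in vehicle cells. At 24 h it was -0.99 ± 0.11 in estrogen cells and -1.15 ± 0.11 in vehicle cells, and all 4 passed the threshold. The siRNA effect at 24 h minus that at 4 h was -0.40 ± 0.11 (95% interval -0.63 to -0.17), just short of the threshold (adjusted p = 0.0525), and 2.95% of all genes passed that test. With the replicate block this CRABP2 difference passed (adjusted p = 9.305e-04). CRABP2 has 1 probe set on the array, so no second one could be set beside it.

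CRABP2 was the only member called between the times in the fit without a replicate block. It was lower at 24 h than at 4 h in HER2 siRNA estrogen cells by -0.76 ± 0.11 (adjusted p = 1.58e-04), in HER2 siRNA vehicle cells by -0.47 ± 0.11 (adjusted p = 0.0143) and in control siRNA estrogen cells by -0.39 ± 0.11 (adjusted p = 0.0412). In control siRNA vehicle cells the difference was -0.04 ± 0.11 and was not called. So 1, 1, 1 and 0 of the 8 members were called, where 6.21%, 6.46%, 5.96% and 0.781% of all genes were. In control siRNA estrogen cells RXRA was also lower at 24 h than at 4 h, by -0.27 ± 0.09, and so was DHRS3, by -0.77 ± 0.24. Both were short of the threshold (adjusted p = 0.0660 and 0.0605). Their arrays did not overlap, but how many of all genes did the same was not counted. Of the 6 control siRNA estrogen arrays, each left out in turn, only the 24 h replicate 1 could be spared without losing the CRABP2 call in these cells, with adjusted p of 0.0666 to 0.196 without any of the other 5. It was also lost without control siRNA vehicle 4 h replicate 2 (0.0512) or HER2 siRNA estrogen 24 h replicate 2 (0.0505), which enter only the shared estimate of spread. The call in HER2 siRNA vehicle cells was lost without the 24 h replicate 2 (0.0576), the 24 h replicate 3 (0.0710) or the 4 h replicate 1 (0.125). Estrogen gave CRABP2 -0.33 ± 0.11 with control siRNA at 24 h, short of the threshold (adjusted p = 0.0540) but past it without control siRNA estrogen 24 h replicate 1 (-0.42, adjusted p = 0.0241), and between -0.17 and 0.12 in the other 3 comparisons.

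DHRS3, a reductase that turns retinal back into retinol and that retinoic acid is known to induce (chr1:12567910-12618210, minus strand), passed the test in 0 of the 18 comparisons in the fit without a replicate block. At 24 h its level was 6.49, 6.95 and 7.45 on the HER2 siRNA estrogen arrays, against 7.49, 7.43 and 7.94 with vehicle. With control siRNA at 24 h it was 6.28, 6.83 and 6.71 with estrogen, against 7.18, 7.43 and 7.33 with vehicle. The control siRNA groups did not overlap, and the HER2 siRNA groups did. At 4 h the HER2 siRNA arrays had 7.29, 7.73 and 8.04 with estrogen, against 7.07, 7.20 and 7.81 with vehicle, and the control siRNA arrays 6.98, 7.48 and 7.67 with estrogen, against 7.38, 7.23 and 7.52 with vehicle.

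The estrogen difference of DHRS3 at 24 h was -0.66 ± 0.24 with HER2 siRNA (95% interval -1.15 to -0.16, adjusted p = 0.128) and -0.71 ± 0.24 with control siRNA (95% interval -1.20 to -0.21, adjusted p = 0.0538). Same-numbered replicates of the HER2 siRNA estrogen and vehicle arrays at 24 h deviated together. Those of the control siRNA did so for replicates 1 and 3 but not 2 (correlations 0.41, 0.41 and 0.06). With the replicate number as a block both differences passed the threshold (adjusted p = 0.00584 with HER2 siRNA and 0.00203 with control siRNA). In the fit with no block, the control siRNA difference passed it without any 1 of 7 arrays of other groups, at adjusted p of 0.0366 to 0.0487. Those arrays enter only the estimate of spread. At 4 h the differences were 0.33 ± 0.24 and 0.00 ± 0.24 in the same order. The pooled SD within groups was 0.33, the widest of the 8 members, beside 0.12 for RARA and 0.10 for RXRA. Part of the DHRS3 spread followed the replicate number. Replicate 1 deviated from the group mean by -0.27 on average and replicate 3 by 0.27, the latter above it in 8 of 8 groups. HER2 siRNA gave 0.24 ± 0.12 averaged (adjusted p = 0.0936), which passed the threshold with the replicate block (adjusted p = 0.00782).

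CYP26B1, 1 of the cytochrome P450 enzymes that hydroxylate and so inactivate retinoic acid (chr2:72129238-72147862, minus strand), was not called in any of the 18 comparisons. Its level lay between 5.18 and 5.95 on the 24 arrays with a median of 5.50, near the filter level. The group means lay between 5.37 and 5.69 and each overlapped the next. The largest estrogen difference was 0.32 ± 0.14, with HER2 siRNA at 4 h (adjusted p = 0.608), and HER2 siRNA, averaged, gave 0.05 ± 0.07 (95% interval -0.10 to 0.19). At such levels a change in RARB or CYP26B1 may not be detectable on this array.

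**Figure D5:**
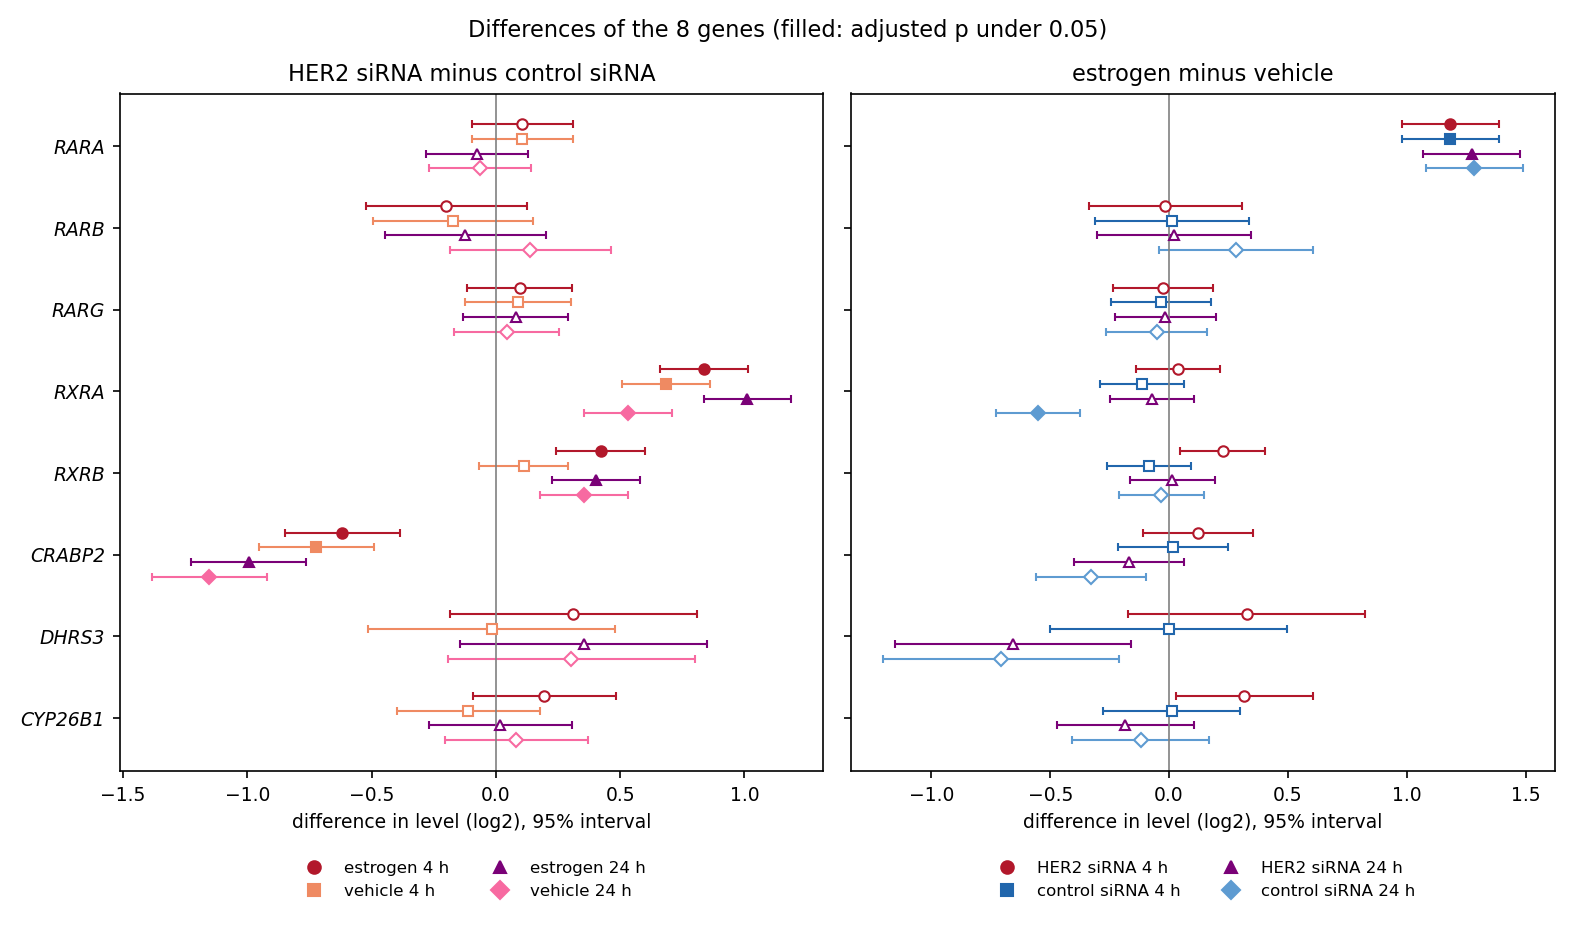
Difference in level (log2) with its 95% interval for each of the 8 genes, on the left for HER2 siRNA minus control siRNA by hormone and time and on the right for estrogen minus vehicle by siRNA and time; filled symbols had an adjusted p under 0.05. RARA was higher with estrogen in all 4 comparisons and RXRA was higher and CRABP2 lower after HER2 siRNA in all 4, while RARB, RARG, DHRS3 and CYP26B1 have no filled symbol.

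Other genes of the pathway were described from lists chosen for their roles. Of 37 other retinoid receptor and handling genes 31 had a probe set and 18 were tested. After HER2 siRNA, averaged, 7 rose and 5 fell, with a median difference of 0.10 beside 0.00 for all genes. The retinal reductase RDH11 fell by -1.14 ± 0.06, the fatty acid and retinoic acid carrier FABP5 fell by -0.61 ± 0.09, and the retinol saturase RETSAT rose by 0.41 ± 0.04 and the retinol dehydrogenase SDR16C5 by 0.35 ± 0.04. Among the retinaldehyde dehydrogenases, the enzymes that make retinoic acid, ALDH1A1 rose by 0.81 ± 0.18 and ALDH1A3 by 0.71 ± 0.15, and these 2, like the genes named below for estrogen with HER2 siRNA, were singled out after their values were seen. The list also holds ALDH1A2 and ALDH8A1, whose values are not given here, so the 2 named do not stand for the class. With estrogen FABP5 alone rose with control siRNA at 24 h (0.75 ± 0.17), no gene of this list was called with either siRNA at 4 h, and CYP26A1 alone fell with HER2 siRNA at 24 h (-0.60 ± 0.16).

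Of 28 retinoic acid-induced genes 20 were tested. After HER2 siRNA, averaged, 5 rose and 3 fell (median 0.07). The TNF-induced protein TNFAIP2 and the homeobox factor MEIS2 rose by 0.62 ± 0.05 and 0.62 ± 0.06, and the transcription factor SOX9 and the kinase PRKCA fell by -0.87 ± 0.10 and -0.81 ± 0.10. With estrogen none was called at 4 h with either siRNA. At 24 h 1 rose and 4 fell with HER2 siRNA and 1 rose and 3 fell with control siRNA (medians -0.05 and -0.10). Of all genes tested, 4.28% rose and 1.9% fell there with HER2 siRNA, and 7.01% and 6.52% with control siRNA. With control siRNA ELF3 fell by -0.64 ± 0.11, MEIS2 by -0.63 ± 0.12 and FOXA1 by -0.40 ± 0.09, while NRIP1, a corepressor that the early estrogen-induced list also holds, rose by 0.38 ± 0.10.

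Of 13 nuclear receptors that pair with RXR 9 were tested, and 3 rose and 2 fell after HER2 siRNA, averaged (median 0.02). The vitamin D receptor VDR fell by -0.73 ± 0.06 and NR4A2 by -0.34 ± 0.04, while THRA rose by 0.37 ± 0.04 and the fatty acid receptor PPARA by 0.36 ± 0.08. With estrogen only NR4A2 was called, in control siRNA cells at 24 h (-0.47 ± 0.09). Of 19 coregulators of retinoid receptors 13 were tested, and 7 rose and 3 fell after HER2 siRNA, averaged (median 0.21). The chromatin regulator ASXL1 rose by 0.60 ± 0.05, TRIM24, a partner of liganded RARs, by 0.56 ± 0.04 and the coactivator NCOA2 by 0.41 ± 0.05, and the arginine methyltransferase CARM1 fell by -0.48 ± 0.04. TRIM24 and NCOA2 fell with estrogen in control siRNA cells at 24 h, by -0.44 ± 0.09 and -0.49 ± 0.10, and TRIM24 alone fell with HER2 siRNA. Against the 59.2% of all genes called for the averaged siRNA comparison, 12 of 18, 8 of 20, 5 of 9 and 10 of 13 genes of these 4 lists were called. For estrogen at 24 h, 6.17% of all genes were called with HER2 siRNA and 13.5% with control siRNA.

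The genes whose 8 group means ran most like those of each member were named from 5715 other genes (5716 for members whose own means spanned less) with group means that spanned at least 0.5. These correlations are descriptions over 8 group means of the same arrays. For RARA they were CCDC110 (r = 0.981), MPPED2 (0.977), SLC22A5 (0.976), CISH (0.976) and MYC (0.975). For RXRA they were HBP1, LINC02035 and YPEL2 (0.994 to 0.995), for RXRB GDF5, LDHD and LRRC69 (0.983 to 0.995) and for CRABP2 SLC16A14, PTPN3 and CHP1 (0.994 to 0.996). DHRS3 ran most like CREB3L4, TONSL-AS1 and ATP2C2 (0.953 to 0.965). For the members whose groups overlapped throughout, they were PEX39, RRAGC and TTC32 for RARG (0.968 to 0.978), TMEM51-AS1, NUDT4 and KCNK15 for RARB (0.894 to 0.927), and ARHGEF40, CARMIL2 and ZNF880 for CYP26B1 (0.695 to 0.772). By Spearman's rho the gene in first place was the same for CRABP2 and another for the other 7 members.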

How the data were processed

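The authors deposited RMA values per probe set on the log2 scale for 24 HG-U133 Plus 2.0 arrays, RMA being named in the submitters' processing notes. Its software and version are not given in the sources used here. From these log2 values, probe sets were named through the platform annotation (41091 with 1 symbol, 1801 with several, 11721 unnamed, 62 controls), and the probe set with the highest mean stood for its gene. Genes at 5 or more on at least 3 arrays were fitted with limma 3.58.1 (R 4.3.3, 1 mean per group, empirical Bayes, 20.9 degrees of freedom), with Benjamini-Hochberg adjustment within each of 18 comparisons and a threshold of 0.05. The code was tested on simulated data. All p-values in the text are limma's adjusted p unless stated. The precision of each group mean and difference is limited by the 3 arrays per group.

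Members, gene lists and marker lists were chosen with earlier results of these data known, so list counts are no independent support. Besides all members, the text names per list up to 4 called genes of lowest p in the averaged siRNA comparison and in estrogen with control siRNA, and the 3 genes (5 for RARA) most like each member. ALDH1A1, ALDH1A3 and, for estrogen with HER2 siRNA, CYP26A1 and TRIM24 were named outside this rule, after their values were seen.

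Same-numbered replicates deviated together in 60 of 84 pairs of arrays (correlation over 0.1), and in all 3 pairs for 5 of 12 comparisons: HER2 siRNA against control siRNA with vehicle at 4 and 24 h and with estrogen at 4 h, estrogen with HER2 siRNA at 24 h, and time in HER2 siRNA vehicle cells. There the replicate block changed a member's call for DHRS3 alone, and moved the count of genes called between times in HER2 siRNA vehicle cells to 1670, against 926 without it. Alternatives covered the filter, probe set choice, scaling, block, weights, prior, groups fitted and each array left out. Promoters come from RefSeq (GRCh38.p14).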

Additional observations from a re-analysis of the deposited data

How the results depend on the processing

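Every call in the report for RARA, for RXRA and for CRABP2 after HER2 siRNA kept its direction and its side of the threshold under all alternatives run, each array left out included. The RXRB siRNA difference did not: with the mean of its probe sets it was 0.0893 averaged, below the threshold, and -0.0236 with vehicle at 4 h, the opposite sign. CRABP2 between times in control siRNA estrogen cells was not called with no filter, with every probe set, with the groups compared alone or after quantile normalisation, and in HER2 siRNA vehicle cells not with the groups compared alone. With the replicate block 12 comparisons of members passed that the report does not call. For RXRA these were siRNA by estrogen at 24 h (adjusted p = 0.0214), estrogen by time with control siRNA (0.00872) and time in control siRNA estrogen cells (0.00919). For CRABP2 they were estrogen with control siRNA at 24 h (0.00109), estrogen by time with control siRNA (0.0403) and siRNA by time (9.305e-04). For DHRS3 they were HER2 siRNA averaged (0.00782), estrogen at 24 h with control siRNA (0.00203) and with HER2 siRNA (0.00584), estrogen by time with HER2 siRNA (0.0189) and time in control siRNA estrogen (0.00227) and HER2 siRNA estrogen cells (0.00262). DHRS3 replicate 3 and RXRA and CRABP2 replicate 1 stood above the group mean in 8 of 8 groups. Without the block, RXRA passed for time in control siRNA estrogen cells with the stricter filter, array weights, the trended prior, without the 3 arrays numbered apart, or without control siRNA estrogen 24 h replicate 1. It passed for estrogen by time with control siRNA with the stricter filter, array weights, or without control siRNA vehicle 24 h replicate 2 or 4 h replicate 1. In the report's comparisons of DHRS3, estrogen with control siRNA at 24 h also passed with the stricter filter, the groups compared alone, quantile normalisation or array weights. CRABP2 also passed for estrogen with control siRNA at 24 h and for siRNA by time with the stricter filter, the mean of probe sets, array weights or the trended prior. No alternative that kept them among the genes tested gave a call for RARB, RARG or CYP26B1. No scaling moved the median of all genes by over 0.05 or the share of higher calls by over 10 points.

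Counts over all genes moved more. With the replicate block they were 76 for estrogen with control siRNA at 4 h (reported 49), 153 with HER2 siRNA at 4 h (100), 34 for the siRNA-by-estrogen effect at 24 h (9), 450 and 198 for the estrogen-by-time effect with control and HER2 siRNA (183 and 74), 829 for siRNA by time (423), and 448, 1437, 1670 and 1514 for time in control siRNA vehicle, control siRNA estrogen, HER2 siRNA vehicle and HER2 siRNA estrogen cells (112, 855, 926 and 890). With the number series added to the block, those that also moved were 75, 29, 414, 129, 768, 400, 1425 and 1662, for the same comparisons without HER2 siRNA at 4 h and without time in HER2 siRNA estrogen cells. With the groups compared alone they were 28 and 458 for estrogen with HER2 siRNA at 4 and 24 h (100 and 885), 4 for siRNA by estrogen at 24 h, 20 for estrogen by time with HER2 siRNA, and 43, 439, 52 and 379 for time in the order above. With array weights they were 81 for estrogen with control siRNA at 4 h, 22 for siRNA by estrogen, 490 for estrogen by time with control siRNA, 725 for siRNA by time, and 379 and 1876 for time in control siRNA vehicle and estrogen cells. Without the 3 arrays numbered apart they were 1151 for estrogen with control siRNA at 24 h (1939), 111 for estrogen by time with control siRNA, and 43 and 507 for time in control siRNA vehicle and HER2 siRNA estrogen cells. The stricter filter gave 278 and 124 for estrogen by time with control and HER2 siRNA and 187 for time in control siRNA vehicle cells, and the trended prior 16 for siRNA by estrogen at 24 h. The causes were not tested.

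With each array left out in turn the counts ranged 27 to 53 and 64 to 107 for estrogen with control and HER2 siRNA at 4 h, 551 to 942 with HER2 siRNA at 24 h, 5 to 17 for siRNA by estrogen at 24 h, 91 to 207 and 38 to 111 for estrogen by time with control and HER2 siRNA, 261 to 495 for siRNA by time, and 6 to 146, 296 to 991, 208 to 1089 and 422 to 961 for time in the order above. RARB and CYP26B1 lay near the filter level, which limits what could be detected for them.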
